A study of Taeniopygia guttata with 2 samples.

Results

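The barcodes described here carried RNA of FABP6 together with RNA of CYP17A1 in single-cell libraries of zebra finch embryonic gonads. They were selected on 3 genes, as barcodes with at least 2000 UMIs (distinct RNA molecules) and 200 genes, at least 2 UMIs of FABP6, at least 3 UMIs of CYP17A1 and at most 2 UMIs of the germ cell gene DND1. The rule found 83 of 17054 barcodes. The female library held 72 of its 7593 barcodes, a share of 0.948% with a 95% exact binomial interval of 0.743% to 1.19%. The male library held 11 of its 9461 barcodes, a share of 0.116% with an interval of 0.058% to 0.208%. The intervals did not overlap, but they cover counting error only, and each sex had a single library, which leaves no replicate spread to hold a sex difference against.

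Each of the 2 groups was a pool of gonads from embryos of Taeniopygia guttata at Hamburger Hamilton stage 28, 7 female and 7 male, and each pool gave 1 library on the 10x Chromium system. The labels name no treatment, mutation or sort, and sex and library cannot be told apart. Total depth was 98701138 UMIs for the female library, with a median of 9126 UMIs per kept barcode, and 124217899 UMIs for the male library, with a median of 9027. Of the barcode sequences, 18 occurred among the kept barcodes of both libraries, and 0 of these was a FABP6/CYP17A1 barcode.

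Steroid hormones are made from cholesterol. STAR carries cholesterol into the mitochondrion, where the first enzyme cuts its side chain, and CYP17A1 then turns the products toward androgens with electrons from POR and help from cytochrome b5 (CYB5A). In vertebrates this takes place mainly in interstitial or theca cells of the gonad and in the adrenal cortex, tissues that form beside each other in the embryo. FABP6 is a small fatty acid binding protein best known as the bile acid carrier of the mammalian ileum.

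FABP6 and CYP17A1 chose the barcodes, so their levels are given as a description. FABP6 had 2 to 167 UMIs per barcode with a median of 5 in female barcodes, and 2 to 22 UMIs with a median of 5 in the male library. Many barcodes lay near the limit. Of the 72 female barcodes, 20 had exactly 2 UMIs of FABP6, 15 had 3 to 4, 19 had 5 to 9 and 18 had 10 or more, and the 11 male barcodes divided into 4, 1, 3 and 3. CYP17A1 had 4 to 139 UMIs with a median of 21 in female barcodes, and 7 to 122 UMIs with a median of 18 in male barcodes. Summed over barcodes and scaled to CPM (counts per 1000000 UMIs of the same sum), CYP17A1 stood at 2633 CPM in female and 3107 CPM in male barcodes. Free RNA, read from barcodes with at most 100 UMIs, held 22.3 CPM of FABP6 and 393 CPM of CYP17A1 in the female library, beside 3.91 and 164 CPM in the male library.

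**Figure D1:**
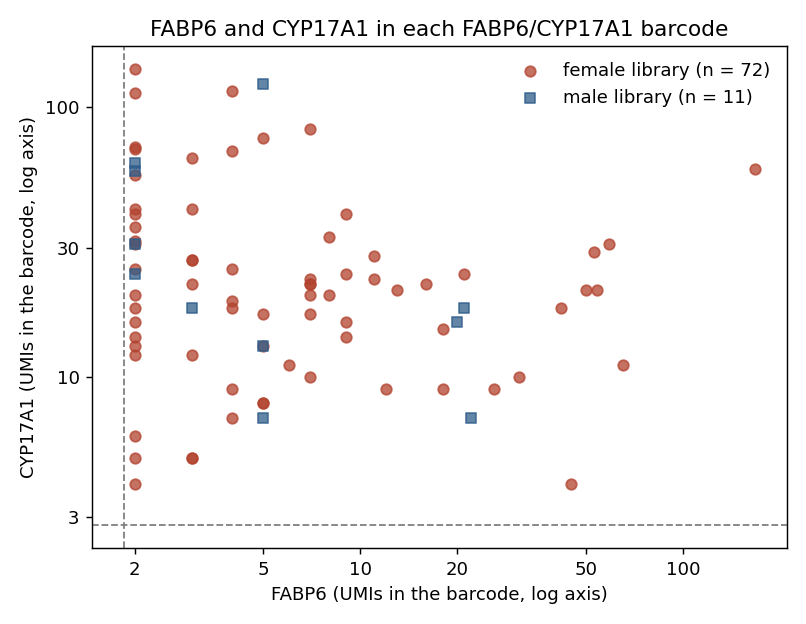
UMIs of FABP6 (horizontal, log axis) and of CYP17A1 (vertical, log axis) in each of the 72 female and 11 male FABP6/CYP17A1 barcodes, 1 point per barcode. Dashed lines mark the limits of the rule, and 20 female and 4 male points lie on the lowest value of FABP6 it admits.

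Outside the limit, 48 female and 22 male barcodes had the same CYP17A1 rule but 1 UMI of FABP6, and 958 female and 1035 male barcodes had none. The last 2 sets together are called CYP17A1-only barcodes below, 1006 female and 1057 male. Barcodes with at least 2 UMIs of FABP6 and fewer than 3 of CYP17A1 numbered 4 in the male and 0 in the female library. The other somatic barcodes, with neither gene at these limits and at most 2 UMIs of DND1, numbered 6029 female and 7657 male, and barcodes with at least 3 UMIs of DND1, which stand for germ cells, 486 female and 732 male. Depth was similar among the somatic classes. The median was 9375 UMIs for female and 10409 for male FABP6/CYP17A1 barcodes, against 10118 and 10089 for CYP17A1-only and 8805 and 8639 for other somatic barcodes.

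For the comparison of these classes the UMIs were summed per class and library and tested with edgeR's quasi-likelihood test, which takes the 2 libraries, rather than single cells, as replicates. FABP6, CYP17A1 and DND1 were left out of every count. Against other somatic barcodes, 477 genes rose and 437 fell at an adjusted p of at most 0.05, or 3.47% and 3.18% of the 13746 genes tested. Against CYP17A1-only barcodes, 147 genes rose (1.07%) and 89 fell (0.647%). With the library as a replicate block, 654 rose and 707 fell against other somatic barcodes, and 305 rose and 261 fell against CYP17A1-only barcodes. Without TMM scaling the second comparison gave 190 higher and 70 lower genes, a split that leaned further to the higher side. Both comparisons share the same FABP6/CYP17A1 sums. Many calls were close to the threshold. Among the genes named or listed below, 47 results were read against CYP17A1-only barcodes, some of them not called. Most of the calls among them, 28, were lost with barcodes thinned to 2000 UMIs, 24 with at least 10 UMIs of FABP6 and 13 with free RNA subtracted. Of 62 results against other somatic barcodes, 22, 25 and 14 lost their call.

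The electron partners of CYP17A1 rose against both classes. CYB5A reached 2467 CPM in female and 2000 CPM in male FABP6/CYP17A1 barcodes, against 420 and 183 CPM in CYP17A1-only and 102 and 114 CPM in other somatic barcodes. Every FABP6/CYP17A1 barcode held a UMI of CYB5A, with 1 to 62 UMIs and a median of 28.5 in female barcodes and with 7 to 54 UMIs and a median of 20 in male barcodes. The log2 fold change of CYB5A was 2.80 ± 0.36 (SE, edgeR's quasi-likelihood test, adjusted p = 0.0187) against CYP17A1-only and 4.26 ± 0.39 (adjusted p = 0.00216) against other somatic barcodes. POR, which feeds electrons to the microsomal cytochromes P450, stood at 461 and 430 CPM in female and male FABP6/CYP17A1 barcodes, against 125 and 72.8 CPM in CYP17A1-only and 41.3 and 45.4 CPM in other somatic barcodes. Its log2 fold change was 2.09 ± 0.27 (edgeR, adjusted p = 0.0187) against CYP17A1-only and 3.26 ± 0.28 (adjusted p = 0.00157) against other somatic barcodes. The call of POR against CYP17A1-only barcodes was lost with thinned barcodes (0.0723) and with at least 10 UMIs of FABP6 (0.0824). No library's level of either gene overlapped between the classes.

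STAR, the third marker of the group, was low. At least 1 UMI was found in 39 of 72 female barcodes (54.2%, 42.0% to 66.0%) and in 3 of 11 male barcodes (27.3%, 6.02% to 61.0%). Among DND1 barcodes, which should lack it and were deeper (median 18690.5 UMIs for female and 16068.5 for male barcodes), the share was 0.206% and 0.546%. The level was 72.4 CPM in female and 24.8 CPM in male FABP6/CYP17A1 barcodes, against 29.8 and 11.6 CPM in CYP17A1-only barcodes, with overlapping Poisson intervals in the male library. STAR rose against other somatic barcodes (log2 fold change 4.89 ± 0.63, edgeR, adjusted p = 0.00658) and did not pass against CYP17A1-only barcodes (1.41 ± 0.58, adjusted p = 0.282). The male value rests on 3 UMIs.

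Other enzymes of steroid metabolism divided. HSD11B2, which inactivates glucocorticoids, stood at 277 CPM in female and 802 CPM in male FABP6/CYP17A1 barcodes. CYP17A1-only barcodes had 56.9 and 7.49 CPM and other somatic barcodes 4.31 and 2.97 CPM. The male level was uneven, since 1 barcode held 45 of the 97 UMIs and the level without it was 466 CPM. It rose by 6.94 ± 1.02 on the log2 scale against other somatic barcodes (edgeR, adjusted p = 0.0099). Against CYP17A1-only barcodes the value was 3.81 ± 0.90 (adjusted p = 0.0904), and it passed with the replicate block (3.98, adjusted p = 0.0307), without the filter on low counts (0.0313) and with DESeq2 (0.000308). HSD17B1, which forms potent estrogens and androgens, had 520 and 372 CPM in FABP6/CYP17A1 barcodes, against 1315 and 589 CPM in CYP17A1-only barcodes (log2 fold change -1.14 ± 0.56, edgeR, adjusted p = 0.376, and -1.23 with an adjusted p of 0.00477 with the replicate block). Other somatic barcodes had 158 and 82.5 CPM of HSD17B1 (1.83, adjusted p = 0.106, and 1.71 with an adjusted p of 0.000487 with the block). AKR1D1, which reduces the steroid nucleus, fell to 219 CPM in female and 141 CPM in male FABP6/CYP17A1 barcodes, against 537 and 899 CPM in CYP17A1-only barcodes (-1.97 ± 0.36, adjusted p = 0.0439), a call lost with thinned barcodes, with at least 10 UMIs of FABP6 and with free RNA subtracted (adjusted p of 0.0643 to 0.153).

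The estrogen-forming enzyme CYP19A1 was close to absent. It was seen in 2 of 72 female barcodes (2.78%, 0.338% to 9.68%) and in 0 of 11 male barcodes, which allows a share of up to 27.3%. CYP17A1-only barcodes had shares of 12.7% and 1.61%, and the deeper DND1 barcodes 1.03% and 0.41%. The whole list of steroid synthesis genes had 29 members, CYP17A1 among them. Apart from CYP17A1, 16 were found by symbol and 15 were tested. Against other somatic barcodes 4 rose (STAR, HSD11B2, POR and CYB5A) and 0 fell, beside 3.47% and 3.18% of all genes, with a median log2 fold change of 0.36 beside -0.17 over all genes. With the replicate block 5 rose there, HSD17B1 being added, beside 654 of all genes. Against CYP17A1-only barcodes 2 rose and 1 fell, beside 1.07% and 0.647% of all genes, with a median of 0.14 beside -0.13 over all genes. With the block 3 rose and 3 fell, beside 305 and 261 of all genes. HSD11B2 was added to the higher genes and HSD17B1 and CYP19A1 (-3.44, edgeR, adjusted p = 0.0298) to the lower ones. The median of the list against CYP17A1-only barcodes was negative with thinned barcodes (-0.31, beside -0.29 over all genes). It was -0.32 with at least 10 UMIs of FABP6, beside -0.32 over all genes. With at least 5 UMIs it was -0.03, beside -0.20, and without the filter -0.02, beside -0.16. The side chain cleavage enzyme CYP11A1, the HSD3B genes, CYP21A2 and the CYP11B genes did not match by symbol and were not analysed here. CYP17A1 chose the barcodes, so of the defining markers STAR alone bears on the label of steroidogenic cells, with the values given above.

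**Figure D2:**
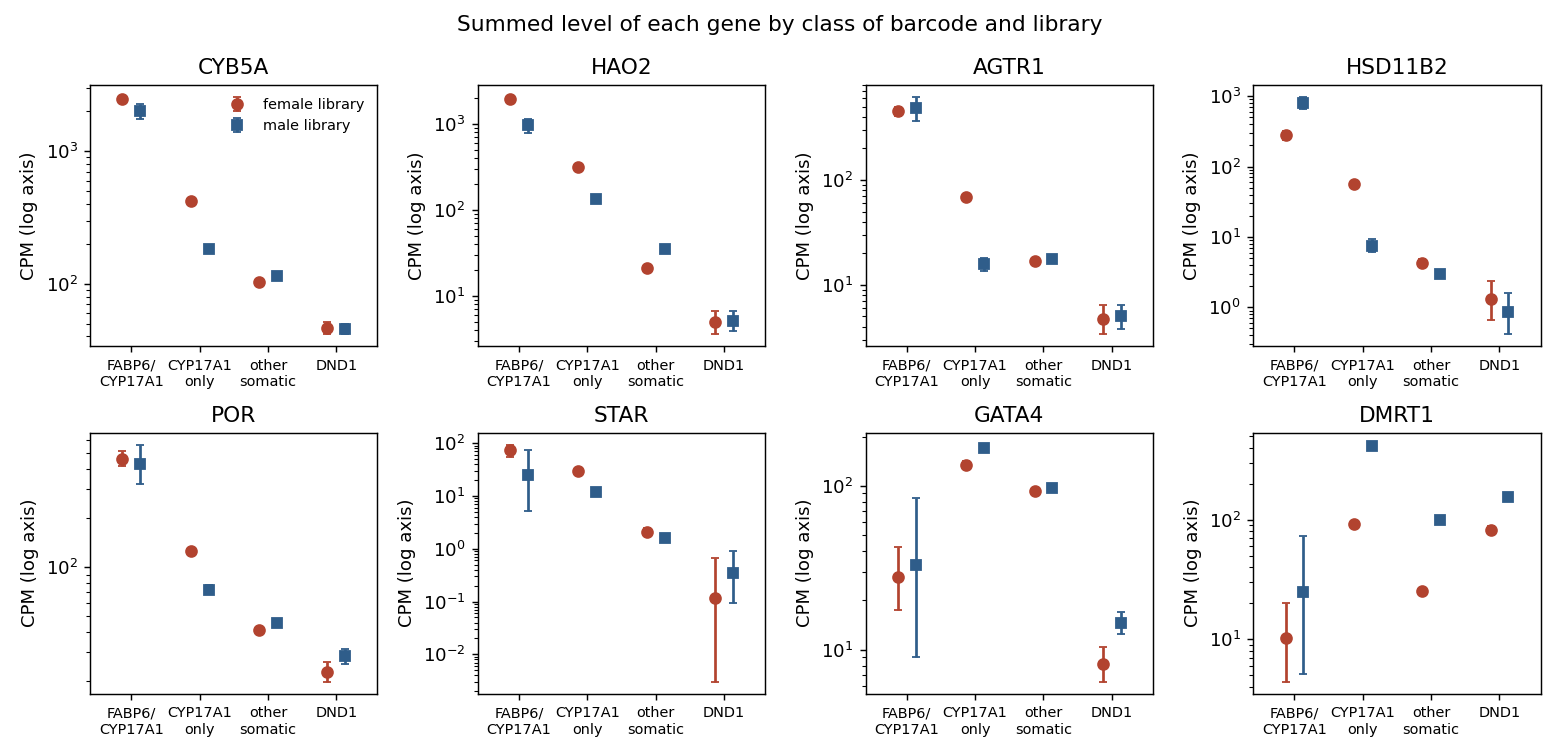
Summed level (CPM, log axis) of 8 genes in FABP6/CYP17A1, CYP17A1-only, other somatic and DND1 barcodes, with circles for the female and squares for the male library and bars for 95% exact Poisson intervals. CYB5A, HAO2, AGTR1, HSD11B2 and POR stand highest in FABP6/CYP17A1 barcodes of both libraries, while GATA4 and DMRT1 stand lower there than in CYP17A1-only barcodes.

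The genes with the largest gains against other somatic barcodes were mostly of other kinds. HAO2, a peroxisomal hydroxyacid oxidase, stood at 1966 CPM in female and 959 CPM in male FABP6/CYP17A1 barcodes, against 20.9 and 34.7 CPM in other somatic barcodes (log2 fold change 5.66 ± 0.56, edgeR, adjusted p = 0.00287). It was found in 62 of 72 female and 8 of 11 male barcodes, so some barcodes of the group held none, and in 4.94% and 5.33% of DND1 barcodes. In the male library 1 barcode held 51 of the 116 UMIs, and the level without it was 601 CPM. HAO2 also rose against CYP17A1-only barcodes, which had 314 and 132 CPM (2.66 ± 0.49, adjusted p = 0.046), a call that was lost with thinned barcodes (0.0902), with at least 5 UMIs of FABP6 (0.0692) and with free RNA subtracted (0.103). AGTR1, a receptor of angiotensin II that marks the outer adrenal cortex in mammals, stood at 451 and 479 CPM, against 68.7 and 15.7 CPM in CYP17A1-only and 16.8 and 17.6 CPM in other somatic barcodes. Its log2 fold change was 3.35 ± 0.60 (edgeR, adjusted p = 0.0411) and 4.63 ± 0.62 (adjusted p = 0.00711). AGTR1 was found in 77.8% (66.4% to 86.7%) of female and 81.8% (48.2% to 97.7%) of male FABP6/CYP17A1 barcodes, against 16.6% and 6.72% of CYP17A1-only barcodes and 6.79% and 6.15% of the deeper DND1 barcodes. Thinned to 2000 UMIs per barcode, the shares were 58.3% and 45.5%, against 9.15% and 2.37% of CYP17A1-only barcodes. The call of AGTR1 against CYP17A1-only barcodes was lost with thinned barcodes (adjusted p = 0.0942), with at least 10 UMIs of FABP6 (0.0696) and with free RNA subtracted (0.06), at log2 fold changes of 2.97 to 3.39, while the adjusted p under the other alternatives ran down to 3.42e-06.

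The homeobox gene MEOX1 stood at 522 and 719 CPM in female and male FABP6/CYP17A1 barcodes, against 14.3 and 35.7 CPM in other somatic barcodes (4.48 ± 0.57, edgeR, adjusted p = 0.00644). Against CYP17A1-only barcodes, with 173 and 176 CPM, it did not pass (1.69 ± 0.52, adjusted p = 0.166) except with the replicate block (1.72, adjusted p = 0.0225). LTF, an iron-binding protein of the transferrin family, and NTRK3, a neurotrophin receptor, rose by 5.81 ± 0.78 and 4.83 ± 0.70 against other somatic barcodes. LTF had 198 CPM in female and 99.2 CPM in male FABP6/CYP17A1 barcodes, against 19.4 and 4.04 CPM in CYP17A1-only barcodes. Its male level rests on 12 UMIs in 4 of 11 barcodes, with 6 of them in 1 barcode. The cation channel gene TRPC7 had 63.5 and 82.6 CPM, against 0.0861 and 0.166 CPM in other somatic barcodes and 5.21 and 3.03 CPM in CYP17A1-only barcodes. The other genes among the 12 with the largest gains were TNNC1, PRRX2, RASGEF1C and CSDC2, each between 54.6 and 215 CPM in FABP6/CYP17A1 barcodes and at or below 4.55 CPM in other somatic barcodes. In the male FABP6/CYP17A1 sum TRPC7 had 10 UMIs, TNNC1 13, PRRX2 12 and CSDC2 15. ENSTGUG00000023028, which has no symbol, stood at 1150 and 694 CPM, against 1.48 and 0.638 CPM.

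Against CYP17A1-only barcodes the 12 largest gains included TRPC7 (log2 fold change 3.99), RASGEF1C (3.65), AGTR1, PRRX2 (3.10) and CYB5A from the set above. SPON1, an extracellular matrix protein, reached 216 CPM in female and 149 CPM in male FABP6/CYP17A1 barcodes, against 22.3 and 13.1 CPM in CYP17A1-only barcodes (3.36 ± 0.31, edgeR, adjusted p = 0.0151). The male level of SPON1 rests on 18 UMIs. EDA, a signal of the tumour necrosis factor family, had 222 and 306 CPM, against 33.9 and 22.0 CPM (3.07 ± 0.25, adjusted p = 0.0133). BMP4, a bone morphogenetic protein, had 107 and 165 CPM, against 20.9 and 7.83 CPM (3.03 ± 0.52, adjusted p = 0.0388). FGFR3, a fibroblast growth factor receptor, had 386 and 149 CPM, against 58.4 and 21.6 CPM (2.83 ± 0.52, edgeR, adjusted p = 0.0468). The calls of BMP4, FGFR3 and RASGEF1C were each lost under 3 alternatives, among them thinned barcodes and subtraction of free RNA. FGFR3 was found in 76.4% of female and 36.4% of male FABP6/CYP17A1 barcodes, against 77.4% and 76.0% of the deeper DND1 barcodes. RAB7B, PDZRN3 and NEFL completed the 12. The calls of PRRX2, RAB7B and NEFL were lost under 2 alternatives each, and those of TRPC7 and SPON1 with thinned barcodes.

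The 8 largest losses against CYP17A1-only barcodes were of GAS6, TUBB6, CCDC88C, GATA4, PCSK2, AKAP12, WNT11 and SEMA3D, with log2 fold changes of -2.70 to -2.23. In the male FABP6/CYP17A1 sum GAS6 had 0 UMIs, TUBB6 had 1 and PCSK2 had 2, under the floor of 3 UMIs. The calls of GAS6, TUBB6, CCDC88C, PCSK2, WNT11 and SEMA3D were each lost with thinned barcodes and with at least 10 UMIs of FABP6. GATA4, a transcription factor of gonadal somatic cells, stood at 28.0 CPM in female and 33.1 CPM in male FABP6/CYP17A1 barcodes, against 135 and 171 CPM in CYP17A1-only barcodes (-2.48 ± 0.34, edgeR, adjusted p = 0.021). It was found in 15 of 72 female and 3 of 11 male barcodes, against 65.7% and 78.2% of CYP17A1-only barcodes and 8.23% and 13.0% of DND1 barcodes. GATA4 also fell against other somatic barcodes, which had 93.4 and 96.9 CPM (-1.81 ± 0.35, adjusted p = 0.0247). This call was lost with at least 5 or 10 UMIs of FABP6 (0.0602 and 0.108), with free RNA subtracted (0.11) and without the deepest barcodes (0.0533), and that against CYP17A1-only barcodes with at least 10 UMIs of FABP6 (0.0676) and with free RNA subtracted (0.0846). AKAP12, a scaffold of protein kinase A, stood at 639 and 281 CPM, against 2184 and 2597 CPM in CYP17A1-only barcodes (-2.35 ± 0.31, adjusted p = 0.0187).

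Transcription factors of the steroidogenic lineages and hormone receptors formed a list of 21 tested genes, of which 2 rose and 7 fell against other somatic barcodes, beside 3.47% and 3.18% of all genes. Against CYP17A1-only barcodes 0 rose and 3 fell (GATA4, GATA6 and ESR1), beside 1.07% and 0.647% of all genes. The median log2 fold change was -0.02 in both comparisons, beside -0.17 and -0.13 over all genes. The call of GATA6 against CYP17A1-only barcodes (-1.55, edgeR, adjusted p = 0.0388) was lost under 5 alternatives, with adjusted p of 0.054 to 0.112. Against other somatic barcodes 4 genes fell with thinned barcodes and 3 with at least 5 UMIs of FABP6, with at least 10 UMIs or with free RNA subtracted. NR5A1, the regulator that switches on steroidogenic enzymes, stood at 344 CPM in female and 264 CPM in male FABP6/CYP17A1 barcodes, against 39.2 and 41.2 CPM in other somatic barcodes (2.86 ± 0.23, edgeR, adjusted p = 0.0013). Against CYP17A1-only barcodes, with 226 and 163 CPM, the value was 0.60 ± 0.22 (adjusted p = 0.229). CITED2, a cofactor of NR5A1 and WT1, rose by 1.74 ± 0.24 against other somatic barcodes, a call lost with thinned barcodes. The repressor NR0B1 fell by 2.23, WT1 by 2.11, LHX9 by 2.27 and TCF21 by 5.63 against other somatic barcodes, all of them factors of the early gonad or its coelomic origin. TCF21 had 1 UMI in each FABP6/CYP17A1 sum, under the floor of 3 UMIs, so the size of its fold is uncertain. The calls of WT1 and TCF21 were lost under 4 alternatives each and that of LHX9 under 3. With the replicate block CITED2 rose (0.88, edgeR, adjusted p = 0.0432) and WT1 fell (-1.93, 0.0288) against CYP17A1-only barcodes. The estrogen receptor ESR1 stood at 127 and 124 CPM, against 336 and 403 CPM in CYP17A1-only barcodes (-1.63 ± 0.16, adjusted p = 0.0151).

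Over all genes, 3.47% rose and 3.18% fell against other somatic barcodes, and 1.07% rose and 0.647% fell against CYP17A1-only barcodes. A list of adrenal cortex genes had 6 of 16 genes measured. AGTR1, SLC16A9 and NR5A1 rose and NR0B1 fell against other somatic barcodes, and AGTR1 and SLC16A9 rose against CYP17A1-only barcodes. The call of SLC16A9 against CYP17A1-only barcodes was lost with thinned barcodes. The transporter gene SLC16A9 stood at 371 CPM in female and 388 CPM in male FABP6/CYP17A1 barcodes, against 146 and 143 CPM in CYP17A1-only and 48.7 and 56.1 CPM in other somatic barcodes (1.29 ± 0.13 and 2.74 ± 0.13, edgeR, adjusted p = 0.017 and 0.000507). Of 8 genes on a list for Leydig and theca cells, STAR rose and TCF21 fell against other somatic barcodes, and 0 passed against CYP17A1-only barcodes. Lipid carriers and retinoid genes gave few calls. Of 13 tested, CRABP1, a retinoic acid binding protein, rose against both classes, to 47.0 CPM in female and 82.6 CPM in male FABP6/CYP17A1 barcodes, against 9.62 and 9.85 CPM in CYP17A1-only barcodes (2.44 ± 0.28, edgeR, adjusted p = 0.0187). Both calls of CRABP1 were lost with at least 10 UMIs of FABP6. DBI rose against CYP17A1-only barcodes, a call lost under 3 alternatives. With the replicate block DBI also rose against other somatic barcodes (0.53, edgeR, adjusted p = 0.0223), where ALDH1A3 (-2.19, 0.0196) and CRABP2 (-3.28, 0.0451) fell. The block also had CYP26B1 lower against CYP17A1-only barcodes (-1.58, edgeR, adjusted p = 0.0465). CYP26A1, which degrades retinoic acid, had 0 UMIs in FABP6/CYP17A1 barcodes of both libraries, against 13.2 and 10.7 CPM in other somatic barcodes, where it fell. With 3 UMIs as the floor, 24.8 CPM in the male sum, no fold can be given there. The bile acid genes that FABP6 works with in the ileum gave 0 calls among the 4 tested, at a summed level of 20.3 CPM in female and 16.5 CPM in male barcodes. With the replicate block CYP27A1 fell against CYP17A1-only barcodes (-1.32, edgeR, adjusted p = 0.0472). DESeq2 called 1 of the list lower there and 1 higher against other somatic barcodes.

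Of 19 tested cholesterol synthesis genes, 10 rose and 0 fell against other somatic barcodes, beside 3.47% of all genes higher, with a median log2 fold change of 1.51. Against CYP17A1-only barcodes 6 rose and 0 fell, beside 1.07% of all genes higher, with a median of 1.09. With the replicate block or with DESeq2 10 rose. Of all genes, 305 rose with the block and 453 with DESeq2, beside 147 in the main fit. The count against CYP17A1-only barcodes was 0 with thinned barcodes (median 0.90), 2 with at least 5 or 10 UMIs of FABP6 and 3 with free RNA subtracted, and that against other somatic barcodes was 6 with thinned barcodes or at least 10 UMIs of FABP6. Those higher against both classes were ACAT2, FDFT1, CYP51A1, MSMO1, SREBF2 and INSIG1. MSMO1, a sterol demethylase, stood at 294 CPM in female and 231 CPM in male FABP6/CYP17A1 barcodes, against 86.3 and 55.2 CPM in CYP17A1-only barcodes (1.85 ± 0.25, edgeR, adjusted p = 0.0199). SREBF2, the transcription factor that controls these enzymes, had 108 and 82.6 CPM, against 45.7 and 38.9 CPM (1.17 ± 0.21, edgeR, adjusted p = 0.0426). The call of MSMO1 against CYP17A1-only barcodes was lost with thinned barcodes and with at least 5 UMIs of FABP6. That of SREBF2 was lost with thinned barcodes and with free RNA subtracted.

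Of the 19 cholesterol synthesis genes, 18 had a log2 fold change above 0 against other somatic barcodes and 16 against CYP17A1-only barcodes. The gains were uneven. PMVK stood at 207 CPM in both libraries, against 181 and 185 CPM in CYP17A1-only barcodes. MVK and HSD17B7 had negative log2 fold changes against CYP17A1-only barcodes that did not pass, -1.07 and -0.81. The male level of HSD17B7 rests on 2 UMIs. Among 19 genes of cholesterol uptake and storage, SOAT1, which stores cholesterol as esters, rose against CYP17A1-only barcodes to 133 and 99.2 CPM, against 41.4 and 30.8 CPM (1.68 ± 0.24, edgeR, adjusted p = 0.024). DBI was the only other gene of that list to pass there (0.80 ± 0.13, edgeR, adjusted p = 0.0304), beside 1.07% of all genes higher. The call of DBI was lost with thinned barcodes and with at least 5 or 10 UMIs of FABP6, and that of SOAT1 with thinned barcodes. Against other somatic barcodes SOAT1 and the lysosomal cholesterol exporter NPC1 passed, beside 3.47% of all genes higher. NPC1 stood at 54.6 CPM in female and 16.5 CPM in male FABP6/CYP17A1 barcodes, against 10.1 and 11.2 CPM. The male level lies under the floor of 3 UMIs, 24.8 CPM in that sum. The call of NPC1 was lost with thinned barcodes and with at least 10 UMIs of FABP6.

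**Figure D3:**
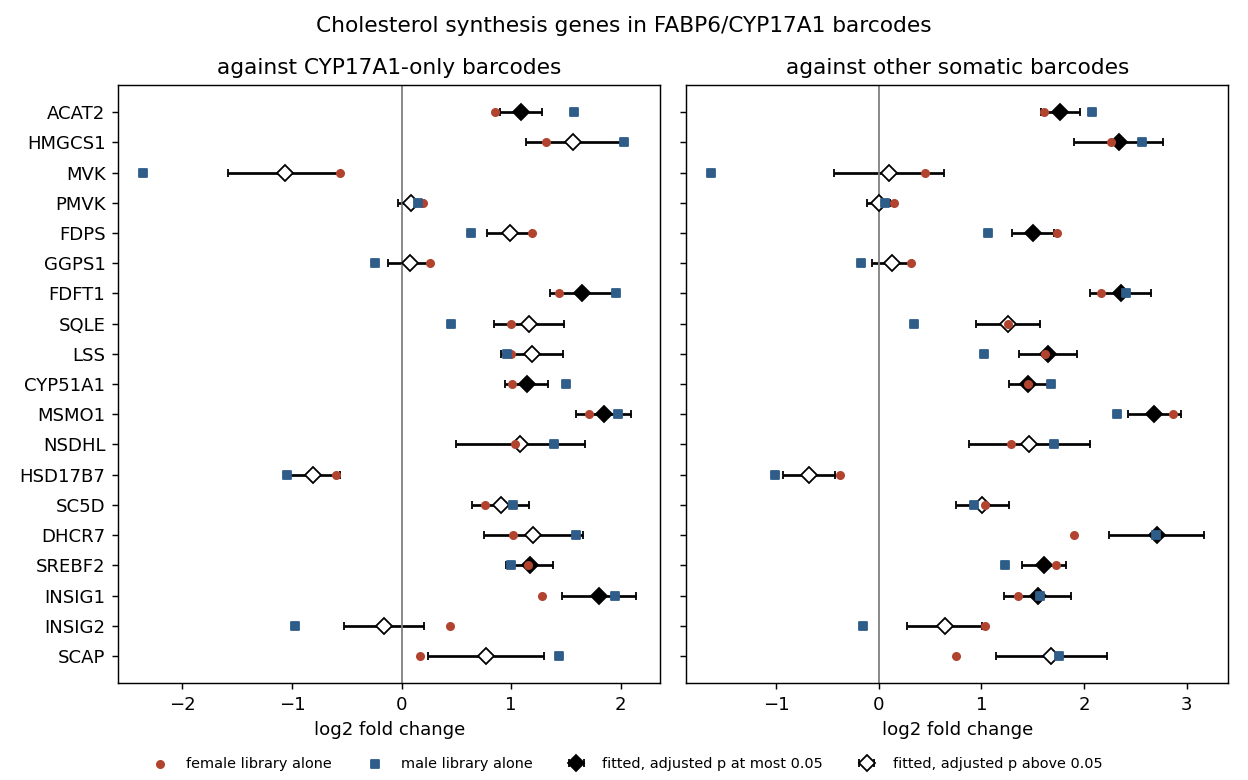
Log2 fold change of the 19 tested cholesterol synthesis genes in FABP6/CYP17A1 barcodes against CYP17A1-only (left) and other somatic barcodes (right). Diamonds are fitted values with SE bars, filled where the adjusted p was at most 0.05, and circles and squares are the ratios of the female and the male library alone with 5 CPM added. Filled diamonds all lie to the right of 0, with 6 on the left panel and 10 on the right.

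AGTR1, CYB5A, HAO2 and POR, already found higher in these sums, were also higher at matched numbers of CYP17A1 UMIs. This describes the same barcodes again and was not tested, and the intervals cover counting error only. Barcodes of both classes were placed in bins of 3 to 9, 10 to 29 and 30 or more UMIs of CYP17A1, which held 13, 39 and 20 female and 2, 5 and 4 male FABP6/CYP17A1 barcodes. In the female library AGTR1 stood at 467, 622 and 154 CPM in FABP6/CYP17A1 barcodes, against 31.5, 134 and 37.7 CPM in CYP17A1-only barcodes of the same bins. CYB5A stood at 2228, 3206 and 1366 CPM, against 192, 645 and 493 CPM. In the male library AGTR1 stood at 723, 522 and 337 CPM, against 12.6, 24.1 and 11.8 CPM. HAO2 in the lowest male bin was the exception, at 111 CPM on 2 barcodes with an interval of 13.5 to 402 CPM, against 94.1 CPM.

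**Figure D4:**
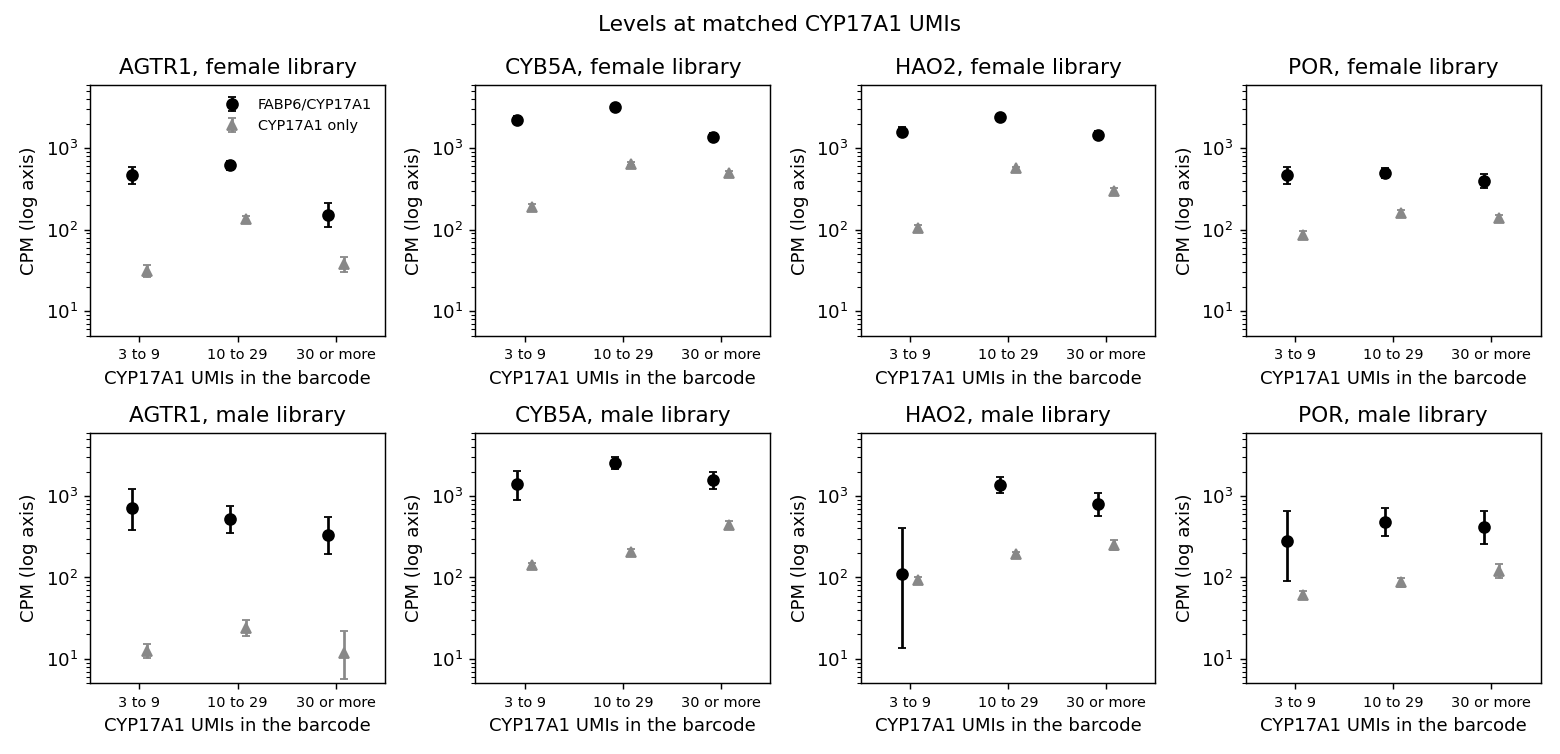
Level (CPM, log axis) of AGTR1, CYB5A, HAO2 and POR in FABP6/CYP17A1 (circles) and CYP17A1-only barcodes (triangles) of the same number of CYP17A1 UMIs, for the female (top) and male library (bottom), with 95% exact Poisson intervals. The circle lies above the triangle in every panel and bin, and the intervals overlap for HAO2 in the lowest male bin.

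The barcodes of the group differed among themselves. From the lowest to the highest of the 4 FABP6 bins, female barcodes had 3910, 3327, 2159 and 1582 CPM of CYP17A1, and 2040, 2258, 2733 and 2702 CPM of CYB5A. HAO2 stood at 1676, 1411, 2033 and 2485 CPM in the same bins. The barcodes with 2 UMIs of FABP6 were mixed. AGTR1 was found in 10 of the 20 female ones, against 12 of 15, 17 of 19 and 17 of 18 in the higher bins. The 10 with AGTR1 held 19 to 44 UMIs of CYB5A with a median of 36, and the 10 without it held 1 to 20 with a median of 4. HAO2 had 13 to 71 UMIs in those with AGTR1 and 0 to 10 in those without. CYP17A1 had 4 to 42 and 5 to 139 UMIs, with medians of 15 and 48. Above that bin the female medians differed in the same direction, but the ranges overlapped. Of the female barcodes with 3 or more UMIs of FABP6, 46 held AGTR1 and 6 did not. Their medians were 31 and 10 UMIs of CYB5A, 20.5 and 1.5 of HAO2 and 19.5 and 71 of CYP17A1. CYB5A ranged from 2 to 62 and from 1 to 38 UMIs, and HAO2 from 0 to 93 and from 0 to 42. In the male library 6 such barcodes held AGTR1, with medians of 16 UMIs of CYB5A, 1 of HAO2 and 14.5 of CYP17A1. The 1 male barcode without it held 7, 6 and 122 UMIs, so HAO2 went the other way there. This split was chosen after its values were seen. Just outside the limit, female barcodes with 1 UMI of FABP6 had 913 CPM of CYB5A, 771 CPM of HAO2, 206 CPM of AGTR1 and 66.3 CPM of GATA4. Female barcodes with 0 UMIs of FABP6 had 395, 291, 61.8 and 138 CPM of these genes. The male barcodes with 1 UMI of FABP6 had 1010 CPM of CYB5A and 174 CPM of AGTR1, and those with 0 UMIs had 165 and 12.3 CPM. These values are cells of 1 library each and were not tested.

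Marker lists of other cell types were read in the same sums. Of all genes, 3.47% rose and 3.18% fell against other somatic barcodes, and 1.07% rose and 0.647% fell against CYP17A1-only barcodes. Of 12 tested supporting cell genes, SOX8 alone passed against other somatic barcodes, where it fell (-2.50), a call lost with thinned barcodes and with at least 5 or 10 UMIs of FABP6. With the replicate block OSR1 also fell there (-2.59, edgeR, adjusted p = 0.0238) and INHA, an inhibin subunit, rose (3.05, adjusted p = 0.0061), at 174 and 141 CPM in female and male FABP6/CYP17A1 barcodes, against 10.8 and 48.3 CPM in other somatic barcodes. CYP17A1-only barcodes had 178 and 354 CPM of INHA. Against CYP17A1-only barcodes 0 supporting cell genes passed, and 5 fell with the block, beside 261 of all genes. DMRT1, a testis gene of the supporting lineage, stood at 10.2 CPM in female and 24.8 CPM in male FABP6/CYP17A1 barcodes, against 91.8 and 414 CPM in CYP17A1-only barcodes. The fitted value was -4.41 ± 1.35 (edgeR, adjusted p = 0.162), and -3.66 with an adjusted p of 0.00861 with the replicate block. SOX9 had 15.3 and 16.5 CPM, against 57.7 and 291 CPM (-3.56 ± 1.18, adjusted p = 0.194, and -2.79 with an adjusted p of 0.0249 with the block). The male levels in FABP6/CYP17A1 barcodes rest on 3 UMIs of DMRT1 and on 2 of SOX9, the latter in 1 barcode. FOXL2 had 0 UMIs in all 83 barcodes, which allows a share of up to 4.17% of the 72 female barcodes.

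Of 9 interstitial genes, 6 fell against other somatic barcodes (COL1A1, COL1A2, COL3A1, DCN, TCF21 and COL6A3), beside 3.18% of all genes, and 0 passed against CYP17A1-only barcodes. Of these 6 calls, COL6A3 was lost under 6 alternatives and COL1A1 and TCF21 under 4 each, and 3 genes fell with thinned barcodes or with at least 5 or 10 UMIs of FABP6 and 1 with free RNA subtracted. With the replicate block POSTN also fell against other somatic barcodes (-4.99, edgeR, adjusted p = 0.0179) and COL1A1 against CYP17A1-only barcodes (-0.94, 0.0416). Of 7 epithelial genes, KRT18, KRT19, EMX2 and TNC fell against other somatic barcodes and KRT18 against CYP17A1-only barcodes. Over all genes 3.18% and 0.647% fell. The call of KRT18 was lost under 3 alternatives against other somatic and 4 against CYP17A1-only barcodes. Against other somatic barcodes that of KRT19 was lost under 4 and that of TNC under 2. Of 8 chromaffin and neural crest genes TH, CHGB and HAND2 fell against other somatic barcodes, calls lost under 2, 1 and 3 alternatives. Against CYP17A1-only barcodes 0 of the 8 passed, and TH fell with the replicate block (-3.13, edgeR, adjusted p = 0.00567). Against other somatic barcodes 6 of the 8 fell with the block, beside 707 of all genes. The summed level of the chromaffin and neural crest list was 48.3 CPM in female and 33.1 CPM in male FABP6/CYP17A1 barcodes, against 322 and 209 CPM in other somatic barcodes. Haemoglobin and other red cell genes summed to 629 and 892 CPM, against 31330 and 24750 CPM in other somatic barcodes, which include blood cells. Germ cell genes other than DND1 summed to 17.8 and 49.6 CPM, against 3516 and 3647 CPM in DND1 barcodes. Of the 8 endothelial, 7 germ cell, 6 macrophage, 7 mesonephros and 19 HOX genes tested, 0 passed in either comparison. With the replicate block, ERG (-2.48, edgeR, adjusted p = 0.0213) and HMOX1 (-2.42, adjusted p = 0.0282) fell against other somatic barcodes and GATA3 rose against CYP17A1-only barcodes (3.56, adjusted p = 0.0296). The summed level of the endothelial list was 49.6 and 33.1 CPM in FABP6/CYP17A1 barcodes, against 15.5 and 24.7 CPM in CYP17A1-only barcodes, and its part in the gains described above was not tested. Among the largest losses against other somatic barcodes were those of CA13, HBAP, TCF21, HBAA, HBAD, COL3A1 and CRISPLD1, from -6.67 to -4.08 on the log2 scale. CA13, HBAP and TCF21 had at most 2 UMIs in each FABP6/CYP17A1 sum, under the floor of 3 UMIs. In the male sum COL3A1 had 0 UMIs and CRISPLD1 had 1. The call of HBAP was lost under 5 alternatives and that of CA13 under 3.

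Signalling and division genes showed few calls. Over all genes, 3.47% rose and 3.18% fell against other somatic barcodes, and 1.07% rose and 0.647% fell against CYP17A1-only barcodes. Of 13 tested genes of cyclic AMP signalling and immediate early response, PRKAR2A, a regulatory subunit of protein kinase A, rose against other somatic barcodes (750 and 455 CPM in female and male FABP6/CYP17A1 barcodes, against 128 and 132 CPM). JUN, an immediate early gene, fell against both classes, to 469 and 438 CPM, against 1241 and 849 CPM in CYP17A1-only barcodes (-1.29 ± 0.22, edgeR, adjusted p = 0.0384). Of 16 proliferation genes, CCNB2 fell against both classes and PCNA rose against other somatic barcodes (0.97 ± 0.13, adjusted p = 0.00701). Of 11 stress genes, JUN and HSPA2 fell against other somatic and JUN against CYP17A1-only barcodes. The call of JUN against CYP17A1-only barcodes and both calls of CCNB2 were lost with at least 10 UMIs of FABP6. Against other somatic barcodes HSPA2 lost its call under 5 alternatives and PCNA under 3. With the replicate block FOS (-0.93, edgeR, adjusted p = 0.029), BUB1 (-1.44, 0.0312) and UBE2C (-1.24, 0.0492) also fell there. Without the deepest barcodes 5 proliferation genes fell there. Against CYP17A1-only barcodes PCNA (0.625, edgeR, adjusted p = 0.0271) and PRKAR2A (0.94, 0.031) rose and HSPA5 (-1.12, 0.02) fell with the block.

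Female and male FABP6/CYP17A1 barcodes were set beside each other as sums of 787061 and 121022 UMIs. Among 4246 genes with at least 50 CPM in a library, 288 (6.78%) were at least 2-fold higher in the female and 265 (6.24%) in the male sum, with 5 CPM added to both. Poisson intervals lay apart for 82 and 119 of these, and with 11 male barcodes most of the rest cannot be resolved. HSD11B2 had 277 CPM (241 to 316) in female and 802 CPM (650 to 978) in male barcodes, but its median was 2.5 UMIs in female and 1 UMI in male barcodes. Only 3 of the 11 male barcodes held 10 UMIs or more, and the male level was 466 CPM (348 to 611) without the highest of them. HAO2 had 1966 CPM (1869 to 2066) in female and 959 CPM (792 to 1150) in male barcodes, or 601 CPM (463 to 765) in the male sum without 1 barcode. FGFR3 had 386 CPM (344 to 432) in female and 149 CPM (88.2 to 235) in male barcodes, or 89.7 CPM (43.0 to 165) in the male sum without the barcode that held 8 of its 18 UMIs. CYB5A had 2467 CPM (2359 to 2580) in female and 2000 CPM (1756 to 2268) in male barcodes. Without 1 barcode its male level was 1737 CPM (1497 to 2003). MEOX1 had 522 CPM (473 to 575) in female and 719 CPM (576 to 887) in male barcodes. Without 1 barcode its male level was 599 CPM (463 to 762), which overlapped the female interval. AGTR1, SLC16A9, POR and NR5A1 had overlapping intervals.

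The largest ratios toward the female side were of genes without a UMI in the male sum. UBR2 and GALNT15, with 48 UMIs each in the female sum, were at least 2.46-fold higher there, and NRSN1 and CDCA7L, with 40 each, at least 2.05-fold, when 3 UMIs are allowed in the male sum. TACC3 and CENPW, both proteins of cell division, had 92 and 79 UMIs in the female and 1 UMI each in the male sum, with ratios of 14.2 (2.48 to 565) and 12.2 (2.12 to 486). Toward the male side, NDNF and HSPB1 had 1 and 2 UMIs in the female and 14 UMIs each in the male sum, with ratios of female over male of 0.011 (0.00026 to 0.0722) and 0.022 (0.00242 to 0.0956). TNMD, RORA, KCNQ3 and GALNT9 followed with 8 to 11 UMIs in the male sum. The genes of this paragraph are the extremes among 4246. Their intervals cover counting error only, not the spread among barcodes or the choice of extremes. Levels without the barcode holding the most UMIs were not read for them. HSPB1 belongs to the stress list, whose summed level was 5772 CPM in female and 7610 CPM in male barcodes, and its part in these differences was not tested.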

How the data were processed

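Single-cell RNA was captured on the 10x Chromium system (3' chemistry v3.1) from 1 pool of gonads per sex. The authors deposited raw UMI counts per gene and barcode, made with Cell Ranger 5.0.0, per the labels, for 20511 genes of a zebra finch reference, 9155 of them without a symbol, before any cell call or normalization. The barcode suffix gave the library, with suffix 1 male and suffix 2 female as the study's figure legend for its batches has it.

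Barcodes with at least 2000 UMIs and 200 genes were kept and classed by UMIs of FABP6, CYP17A1 and DND1. No doublet caller was run. Barcodes above the 95th percentile of UMIs (4 female and 0 male FABP6/CYP17A1 barcodes) were left out as an alternative. UMIs were summed per class and library and tested with edgeR 4.0.16 under R 4.3.3 (filterByExpr, TMM, quasi-likelihood test, Benjamini-Hochberg over all 13746 genes), without a block, in 1 fit of 8 sums with 4 residual degrees of freedom. The fit was planned with 10 sums, but barcodes with FABP6 and no CYP17A1 were too few (4 male) and are given as values only. The common dispersion was 0.0467. Each pair of classes in 1 library came from the same pool of embryos, so the library is a true block. Deviations of FABP6/CYP17A1 sums correlated with those of CYP17A1-only sums at r = 0.119 and of other somatic sums at r = 0.114 over genes, which are no independent replicates. In data simulated with 200 genes changed by a log2 fold change of 2, edgeR recovered 167 with 5 false calls among 13167 genes against CYP17A1-only and 171 with 10 among 13141 against other somatic barcodes. The changed genes were drawn only from those with summed counts above the median. All classes had the same base profile, with no effect of library or sex. These counts therefore do not measure recovery or false calls in the real sums. The p-values rest on 2 libraries per class, which also differ in sex.

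Sexes were compared without a test, with 95% exact Poisson intervals for levels and exact binomial intervals for shares. For a count of 0 the upper limit was taken as 3 counts. Log2 ratios of single libraries have 5 CPM added. Free RNA was read from barcodes with at most 100 UMIs. Genes named are the 12 largest gains and 8 largest losses per comparison (adjusted p of 0.05 or less, 50 CPM or more in each library of the higher class, same direction in both libraries, with a symbol), the 6 largest ratios each way between the sexes, and list genes. Some genes of the rule and lists are not reported here. HAO2, MEOX1 and FGFR3, singled out after their values were seen, are also given where that rule did not pick them. The barcodes and lists were chosen with earlier results of these data known. Alternatives were DESeq2 1.42.0, no TMM, no filter, the library as a block, barcodes thinned to 2000 UMIs, at least 5 or 10 UMIs of FABP6, subtraction of free RNA at 10% and each library left out. Levels without the barcode holding the most UMIs of a gene, and the calls of each list under each alternative, were added after seeing the data.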

Additional observations from a re-analysis of the deposited data

Results flagged for a closer look

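A signal stood out in barcodes that no comparison used. The 4 male barcodes with at least 2 UMIs of FABP6 and fewer than 3 of CYP17A1 held 212 UMIs of FABP6, a level of 6336 CPM (5512 to 7248), with 2 to 201 UMIs per barcode and a median of 4.5, so 1 barcode carried nearly all of it. They held 1 UMI of CYP17A1 in all (29.9 CPM), 239 CPM of CYB5A and 120 CPM of HAO2. The female library had 0 such barcodes.

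ALDH1A2, an enzyme that forms retinoic acid, moved in opposite directions in the libraries against other somatic barcodes, with Poisson intervals apart in both. The log2 ratio was -0.34 in the female library (166 CPM in FABP6/CYP17A1 barcodes, against 212 CPM) and 0.89 in the male library (380 CPM, against 203 CPM). With 1 library per sex the difference was not tested.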

How the results depend on the processing

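For 109 gene results, 981 values were read under alternatives to the test or the barcodes. Of these, 813 had the direction and call of the main analysis, which includes genes not called in either. The call was lost in 158 and gained in 9. The 1 reversal was that of MVK against CYP17A1-only barcodes (0.24 with thinned barcodes, not called in either). The losses lay mostly with thinned barcodes and with at least 10 UMIs of FABP6 (18 female and 3 male barcodes). Subtraction of free RNA lost 13 calls against CYP17A1-only and 14 against other somatic barcodes. The cause of the losses was not tested. The 218 ratios of 1 library alone kept their direction. For the genes picked as largest gains or losses the naming rule had required this, so it adds no separate support. Leaving out a library leaves no residual degrees of freedom, so counts of calls without each replicate cannot be given.

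Against other somatic barcodes (477 higher, 437 lower), DESeq2 called 770 higher, thinned barcodes 165 and 94, at least 5 UMIs of FABP6 289 and 184, at least 10 UMIs 168 and 75, and the replicate block 707 lower. Against CYP17A1-only barcodes (147 higher, 89 lower), DESeq2 called 453 and 267, no filter 223 and 157, the replicate block 305 and 261, thinned barcodes 17 and 17, at least 10 UMIs of FABP6 59 and 22, and subtraction of free RNA 53 lower. The replicate block kept all 147 and 89 calls. The median log2 fold change of all genes against CYP17A1-only barcodes was -0.13, and -0.02 with DESeq2. Against other somatic barcodes it was -0.17, and -0.44 without the filter.

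The share of FABP6/CYP17A1 barcodes moved with the FABP6 limit, to 1.58% (female library) and 0.349% (male library) at 1 UMI, 0.487% and 0.0634% at 5 UMIs, and 0.237% and 0.0317% at 10 UMIs. Between the sexes (288 higher in female, 265 in male), the counts were 81 and 128 at 1 UMI of FABP6, 481 and 510 at 5, 780 and 1155 at 10, 884 and 1013 with thinned barcodes, 166 and 142 with 20 CPM added, 823 and 584 with a minimum of 20 CPM, and 86 and 110 with a minimum of 100 CPM. The cause of these changes was not tested.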
